A study of Danio rerio with 18 samples.

Results

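The genes described here are 5 zebrafish members of the BET family, brd2a, brd2b, brd3a, brd3b and brdt. They were chosen by name, as the rows of the deposited gene table with these symbols, and were joined by gene ID to the 4 comparisons that the authors deposited. The 5 genes are among 17135 genes in those comparisons, and each of the 5 had an adjusted p in every comparison. Newly made RNA was captured from whole wild type zebrafish (Danio rerio) embryos at the 256-cell and the 1024-cell stage, around the time when the embryo starts to transcribe its own genome. All embryos were dechorionated and received s4UTP, a modified nucleotide that enters RNA made after the injection and that served both for capture on beads and, after treatment with iodoacetamide (IAA), for marking bases (enriched SLAM-seq). One group received cdk9 mRNA together with s4UTP (CDK9 overexpression), a second received MiR430 microRNA together with s4UTP, and the untreated group received s4UTP alone. Each group had 3 biological replicates at each stage, for 18 libraries in 6 groups. An injection of control RNA was not among the groups, so effects of CDK9 or MiR430 cannot be told apart from those of injected RNA in general.

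BET proteins carry a pair of bromodomains, modules that bind acetylated lysines on histone tails, and an extraterminal domain that recruits other proteins. The family is linked to P-TEFb, the kinase complex of CDK9 and a T cyclin, which releases paused RNA polymerase II into elongation. In mammals BRD2 and BRD3 are made in most tissues, whereas BRDT is known for its role in the male germ line. Zebrafish carry pairs of brd2 and brd3 genes, named a and b.

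The 5 genes lie on separate chromosomes and differ in how compact they are. In GRCz11 coordinates, brd2a (ENSDARG00000022280) lies on the plus strand of chromosome 19 from 7152966 to 7170674, with 13 separate exon blocks in 17.7 kb. Its paralog brd2b (ENSDARG00000046087) lies on the plus strand of chromosome 16 from 48714048 to 48747788, with 12 exon blocks in 33.7 kb. The gene brd3a (ENSDARG00000006527) lies on the minus strand of chromosome 21 from 18266319 to 18275337, and its 12 exon blocks fill 38.1% of 9.02 kb. Its paralog brd3b (ENSDARG00000100129) lies on the minus strand of chromosome 5 from 64411516 to 64454466, and its 13 exon blocks fill 11.7% of 43.0 kb. The gene brdt (ENSDARG00000102802) lies on the minus strand of chromosome 6 from 24364678 to 24392915, with 21 exon blocks in 28.2 kb. In both paralog pairs the a copy therefore has the shorter span. Exon length does not follow this in the brd2 pair, with 5628 bases in brd2a and 4608 in brd2b. It is 3439 bases in brd3a and 5015 in brd3b.

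**Figure D1:**
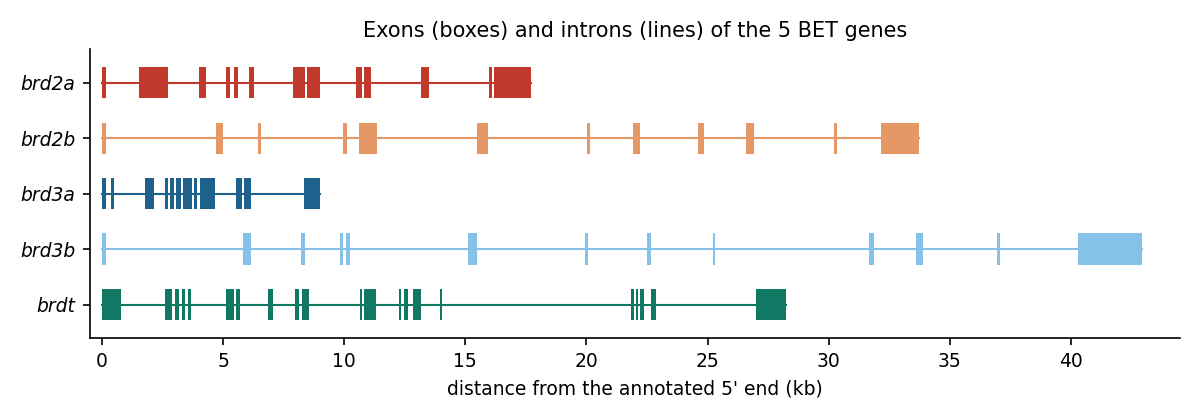
Annotated exons (boxes, all transcripts merged) and introns (lines) of the 5 genes, drawn against the distance from the annotated 5′ end in kb. The span is 9.02 kb in brd3a and 43.0 kb in brd3b, the shortest and the longest of the 5.

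The mean level over the study's libraries differed widely among the 5 genes, with brd2a highest. The level is given here as the authors' mean normalized count over libraries, divided by the exon length in kb so that genes can be compared. The sources used here do not say whether the counts hold all captured reads or reads with converted bases, so the level need not be one of new RNA alone. It also pools injected and untreated embryos, and the CDK9 groups, in which brd2a was 88.1-fold and 10.8-fold over untreated embryos, raise the mean of brd2a more than those of brd2b and brd3b. At the 1024-cell stage brdt was 14.7-fold under CDK9 and 10.2-fold under MiR430, and brd3a was 2.70-fold under CDK9. These groups raise the pooled means of brdt and brd3a as well. The levels and their order in untreated embryos were not analysed here. The pooled level was 288 normalized counts per kb for brd2a, 45.0 per kb for brd3a, 23.8 per kb for brdt, 12.6 per kb for brd2b and 6.68 per kb for brd3b. The level per kb of brd2a was thus 6.40 times that of brd3a, the next in order, and 43.1 times that of brd3b. Without division by length, brd2a had a mean of 1620 normalized counts, the 7th highest of 17098 nuclear genes. The means of brd3a, brdt, brd2b and brd3b were 155, 135, 58.1 and 33.5 normalized counts, and the median nuclear gene had 9.79. In both pairs the a copy had the higher pooled mean, and brd2a held 80.9% of the summed pooled mean of the 5 genes. These means carry no error, because no value per library was used, so neighbours in this order cannot be set against a spread. Among the 38 other measured bromodomain gene IDs the highest pooled mean per kb was 53.6, that of trim33, which like the order above may differ in untreated embryos.

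The 18 count columns deposited beside the comparisons bear names that match no sample label, so values of single libraries, their depth and the level in each group were not used. Each comparison below is the authors' own and sets injected embryos against untreated embryos of that stage, with a log2 fold change, its standard error (SE) and an adjusted p. The fold changes are shrunken towards 0, more so where a gene is variable or rare, and a fold change near 0 therefore does not show that a gene stayed the same. A gene was called higher or lower where the adjusted p was under 0.05. Transcripts of the mitochondrial genome made up 96.8% of all mean normalized counts. The 9 listed blastula markers had means between 219 and 3213, while the 2 measured markers of differentiated tissue had at most 2.56. For cdk9, whose message was injected, the authors' deposited tables had a rise of 6.79 on the log2 scale (SE 0.41) at the 256-cell stage. At the 1024-cell stage the rise was 5.88 (SE 0.39). The injected message was made before s4UTP was given. Whether these reads came from it, carried over without s4U, or from cdk9 made by the embryo was not tested. In RNA from whole embryos, fewer cells making a transcript and less of it per cell cannot be told apart.

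Under CDK9 overexpression at the 256-cell stage brd2a rose steeply, and it was the 1 member past the threshold. The authors' deposited table gave it a log2 fold change of 6.46 with an SE of 0.86 (adjusted p = 1.9e-11), which corresponds to 88.1-fold. Its p ranked 7th of 9124 genes tested and its fold change 86th. The other 4 genes had positive log2 fold changes that did not pass. For brd3a the authors' deposited table has 0.94 (SE 0.53, adjusted p = 0.0752), and for brdt it has 0.90 (SE 0.76, adjusted p = 0.113). Closer to 0 in the authors' deposited table lay the b copies, brd2b at 0.39 (SE 0.51, adjusted p = 0.495) and brd3b at 0.12 (SE 0.41, adjusted p = 0.862). The approximate 95% interval of the log2 fold change, taken from its SE, ran from -0.61 to 1.38 for brd2b and from -0.68 to 0.92 for brd3b.

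So 1 of 5 members rose and 0 fell, where 5.04% of all tested genes rose and 0.373% fell. The 3 members with an unadjusted p under 0.05, brd2a, brd3a and brdt, all had positive log2 fold changes. Such a p was found in 17.2% of all tested genes. Of the 2390 tested genes with a mean of at least 50, 12.2% rose, but that mean includes the CDK9 libraries, so a gene can enter this class through its rise. When p-values were adjusted over those abundant genes alone, brd3a passed as well (adjusted p = 0.0342), which made 2 members. With a mean of 33.5, brd3b was not among those abundant genes. The median log2 fold change of the 5 genes was 0.90, against 0.07 over all tested genes. Under the authors' stricter rule (adjusted p under 0.01 and a log2 fold change above 2) brd2a was again the 1 member called, and 2.48% of tested genes were called higher. Listed marker genes were viewed in the same comparison, with 6 of 9 blastula markers and 0 of 6 maternal oocyte markers rising. The blastula list stands for the embryo as a whole, not for a cell type within it. Of 3 measured enveloping layer markers 1 rose (grhl3), and of 2 measured yolk syncytial layer markers 1 rose (mxtx2). Each was the 1 marker of its layer with an adjusted p, so the others could not be called. The markers' part in the rise of brd2a was not tested.

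At the 1024-cell stage brd2a, brdt and brd3a rose under CDK9, and brd2b and brd3b did not pass. The largest change was that of brdt, which the authors' deposited table puts at 3.88 on the log2 scale (SE 0.83, adjusted p = 8.6e-05), or 14.7-fold. Its p ranked 29th of 11724 genes tested. For brd2a that comparison in the authors' deposited table has 3.43 (SE 0.81, adjusted p = 0.000429), or 10.8-fold. Smaller was the rise of brd3a, at 1.43 in the authors' deposited table (SE 0.74, adjusted p = 0.0359), or 2.70-fold. This call lies near the threshold, since the adjusted p was 0.052 when all genes with a p were counted and 0.0624 when the statistics of all genes were recentred on their median.

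The b copies again lay near 0 at this stage. Log2 fold changes in the authors' deposited table were 0.08 for brd2b (SE 0.37, adjusted p = 0.904) and -0.04 for brd3b (SE 0.32, adjusted p = 0.954). Their approximate 95% intervals ran from -0.66 to 0.81 and from -0.65 to 0.58 on the log2 scale. In all, 3 of 5 members rose and 0 fell, where 5.89% of tested genes rose and 0.461% fell, and 13.8% of tested genes with a mean of at least 50 rose. By the authors' stricter rule 2 members, brd2a and brdt, were called, beside 2.65% of tested genes. The median log2 fold change was 1.43 over the 5 genes and 0.04 over all tested genes. At this stage 4 of 9 blastula markers, 0 of 3 enveloping layer markers, 1 of 2 yolk syncytial layer markers and 0 of 6 maternal oocyte markers rose. The yolk syncytial layer marker that rose was the 1 of its list with an adjusted p. The markers' part in the rise of the 3 members was not tested.

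**Figure D2:**
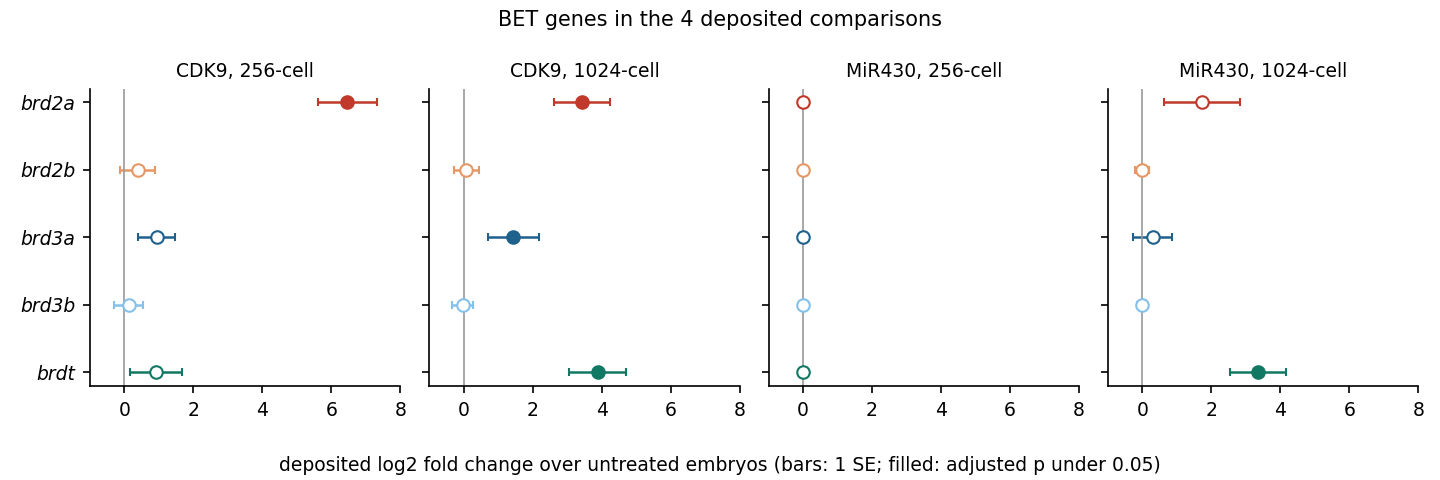
Deposited log2 fold changes over untreated embryos with 1 SE on each side, for the 5 genes in the 4 comparisons, with filled points where the adjusted p was under 0.05. Under CDK9 brd2a is filled at both stages (6.46 and 3.43), brdt and brd3a only at the 1024-cell stage, and under MiR430 brdt alone is filled (3.35).

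The comparisons of the 2 stages share no libraries, so the responses to CDK9 can be set against each other gene by gene. The log2 fold change of brd2a was larger at the 256-cell stage by 3.03 (SE 1.18, approximate 95% interval 0.72 to 5.35). That of brdt ran the other way, with a difference of -2.98 between the 256-cell and the 1024-cell stage (SE 1.12, interval -5.18 to -0.77). Before adjustment the p of these differences was 0.0102 for brd2a and 0.00808 for brdt, from a normal approximation across all genes. Adjusted over the 9124 genes with an adjusted p at both stages neither passed, with an adjusted p of 0.686 for brd2a and 0.594 for brdt. The differences of brd2b (0.31, SE 0.63), brd3a (-0.49, SE 0.91) and brd3b (0.15, SE 0.52) were smaller than their SE. Among those 9124 genes 18 differences passed, so this test, built on shrunken estimates, called few genes of any kind.

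MiR430, the microRNA family that clears maternal messages in zebrafish, was compared with the same untreated embryos. At the 1024-cell stage brdt was the 1 member that rose, with 3.35 as its log2 fold change in the authors' deposited table (SE 0.81, adjusted p = 0.00234), or 10.2-fold. Its p ranked 6th of 10748 genes tested, of which 1.01% rose and 0.0558% fell. Neither brd2a, at 1.73 (SE 1.09, adjusted p = 0.0801), nor brd3a, at 0.30 (SE 0.57, adjusted p = 0.389), passed in the authors' deposited table. Before adjustment 3 of 5 members, brdt, brd2a and brd3a, had a p under 0.05, all with positive log2 fold changes. Of all tested genes 11.1% had such a p. For the b copies the authors' deposited table has log2 fold changes of -0.02 (SE 0.20) in brd2b and -0.01 (SE 0.15) in brd3b. The call for brd2a depended on the genes counted, and with p-values adjusted over genes with a mean of at least 50 it passed (adjusted p = 0.0415). Among tested genes with such a mean, 2.13% rose. That mean includes the injected libraries, so a gene can enter this class through its rise. Of the markers listed above with an adjusted p 0 passed, although 6 of 9 blastula markers had an unadjusted p under 0.05. Such a p was found in 11.1% of all tested genes. The authors' stricter rule called brdt here, beside 0.195% of tested genes. The untreated 1024-cell libraries are shared between the CDK9 and the MiR430 comparison, so the values of brdt in the 2 (3.88 and 3.35) are not independent of each other.

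At the 256-cell stage 0 of 5 members passed under MiR430, where 0.0323% of 12373 tested genes rose, by either rule, and 0.0242% fell. Shrinkage was strong in this comparison, with a median SE of 0.02 over all tested genes, so its fold changes give no size. For brd2a the authors' deposited table has an unadjusted p of 0.00606, with a positive sign and an adjusted p of 0.926. It was the 1 member with an unadjusted p under 0.05, a level met by 3.93% of all genes tested. The p of brd2a ranked 80th of all genes tested. The other 4 members had unadjusted p-values from 0.279 (brdt) to 0.646 (brd2b), with an adjusted p of 1 each.

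**Figure D3:**
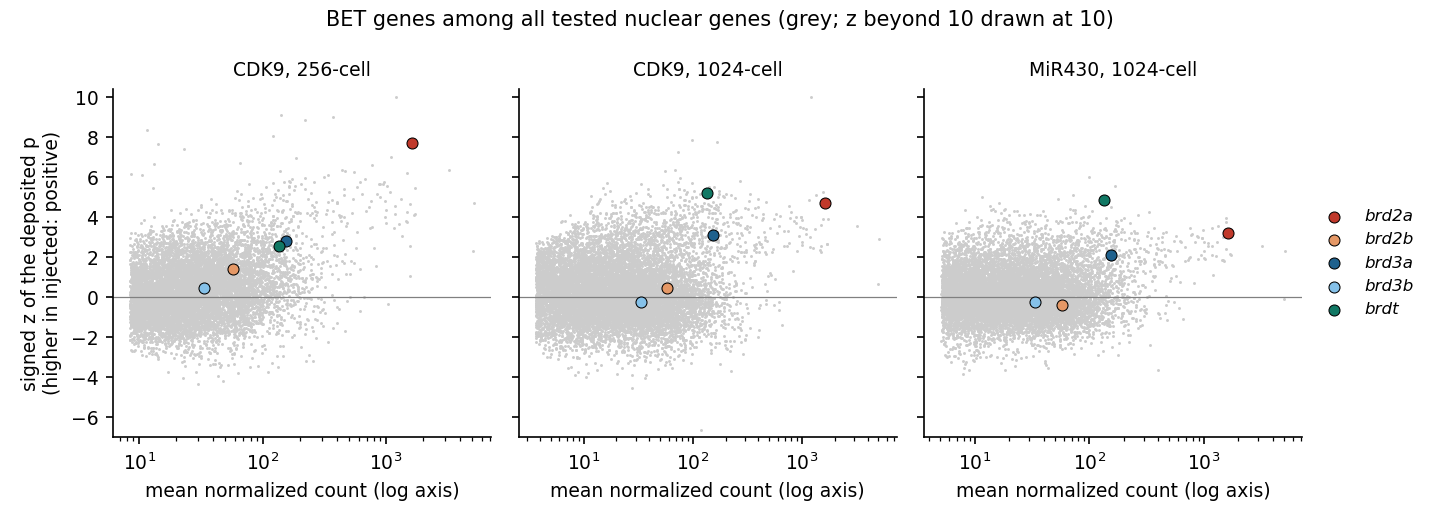
Signed z of the deposited p, positive where the injected group was higher, against the mean normalized count (log axis) for all tested nuclear genes (grey) and the 5 genes, in 3 comparisons. Under CDK9 at the 256-cell stage brd2a stands at 7.69, and brdt stands at 5.19 under CDK9 and at 4.84 under MiR430 at the 1024-cell stage.

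The paralogs of a pair can be compared within the same libraries. Under CDK9 at the 256-cell stage the log2 fold change of brd2a exceeded that of brd2b by 6.07 (combined SE 1.00), and at the 1024-cell stage by 3.35 (combined SE 0.89). For brd3a against brd3b the differences were 0.82 (combined SE 0.67) and 1.47 (combined SE 0.80). These SEs treat the 2 genes as independent although they share libraries, and no p is given. The difference within the brd2 pair was larger than 3 combined SE at both stages, whereas that within the brd3 pair was under 2. Because the fold changes are shrunken, these ratios are no test, and they do not show that the brd3 pair responded alike. The b copies had the lower pooled mean, but that mean includes the CDK9 libraries. In these brd2a rose at both stages and brd3a at the 1024-cell stage, which widens the gap. Whether fewer reads had a part in the missing calls of the b copies was not tested.

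Genes beside the members were inspected because reads can run over between neighbours. Downstream of brd2a on the same strand, hsd17b8, a hydroxysteroid dehydrogenase gene, starts after 2938 bases and had a mean of 35.6 normalized counts. The authors' deposited tables give hsd17b8 log2 fold changes under CDK9 of 0.39 (SE 0.58, adjusted p = 0.474) at the 256-cell stage and 1.75 (SE 1.21, adjusted p = 0.0737) at the 1024-cell stage. Because hsd17b8 lies downstream, its values do not bear on reads that run into brd2a. Upstream of brd2a, psmb13a lies on the opposite strand, is not in the 4 comparisons and was not analysed here. The 5′ end of brd3a overlaps wdr5, the gene of a subunit of histone methyltransferase complexes, on the opposite strand, and the exons of the 2 genes share 224 bases. The libraries were stranded per the labels, and the deposited count table is marked as being of proper orientation. What that mark covers is not explained in the sources used here, so the assignment of reads in that stretch is uncertain. Where brd3a rose, under CDK9 at the 1024-cell stage, the authors' deposited table has -0.05 for wdr5 (SE 0.29, adjusted p = 0.929). No other gene overlaps a member. The other neighbours with values had no call in any of the 4 comparisons. They were vav2 beside brd3a with a mean of 14.2, and tap1, dnai1.1, si:ch1073-363c19.3, rxrab and tgfbr3 with means of at most 3.56. Apart from vav2 they had no adjusted p under CDK9 or under MiR430 at the 1024-cell stage, so they could not be called there. For dnai1.1, rxrab and tgfbr3 the same held under MiR430 at the 256-cell stage.

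A pair of lists gives the setting of the family, other genes with bromodomains and the genes of P-TEFb and pause release. Of 38 measured gene IDs of other bromodomain genes 1 rose under CDK9 at the 256-cell stage and 2 rose at the 1024-cell stage, and 0 fell at either stage, beside 5.04% and 5.89% of all tested genes that rose. Of the 38 IDs, 35 and 36 had an adjusted p at the 256-cell and the 1024-cell stage. Under CDK9 an unadjusted p under 0.05 was found for 4 of the 38 at the 256-cell stage and for 9 at the 1024-cell stage. Of all tested genes 17.2% and 17.8% had such a p. The gene that rose at both stages was pbrm1l, related to the polybromo subunit of a SWI/SNF chromatin remodeller. For pbrm1l the authors' deposited tables have 1.40 (SE 0.91, adjusted p = 0.0284) and 2.52 (SE 0.79, adjusted p = 0.00529). By the authors' stricter rule it was called at the 1024-cell stage only. The second was baz1a, a subunit of ISWI remodellers. Its more abundant ID has 1.81 in the authors' deposited table of the 1024-cell stage (SE 0.98, adjusted p = 0.0418). A second ID of that symbol has 0.01 (SE 0.35), and the stricter rule called neither ID. Under MiR430 0 of the 38 passed at the 256-cell or the 1024-cell stage, where 0.0323% and 1.01% of all tested genes rose. An unadjusted p under 0.05 was found for 2 and 3 of the 38, beside 3.93% and 11.1% of all tested genes. The list's median log2 fold change under CDK9 was 0.11 at the 256-cell and 0.13 at the 1024-cell stage, against 0.07 and 0.04 over all tested genes.

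Among 33 measured P-TEFb and pause release genes 1 rose under CDK9 at each stage, cdk9, whose message was injected, and 0 fell. Of all tested genes 5.04% and 5.89% rose at the 256-cell and the 1024-cell stage. An adjusted p was given for 30 and 31 of the 33 at these stages. Under CDK9 an unadjusted p under 0.05 was found for 3 and 2 of the 33, cdk9 among them. Of all tested genes 17.2% and 17.8% had such a p. The 3 measured T cyclin genes, whose products partner CDK9, are named without a call, after their values were seen. At the 256-cell stage under CDK9 the authors' deposited table has log2 fold changes of -0.25 (SE 0.49) for ccnt1, 0.11 (SE 0.44) for ccnt2a and 0.47 (SE 0.44) for ccnt2b. At the 1024-cell stage it has 0.39 (SE 0.62), -0.19 (SE 0.46) and 0.20 (SE 0.35) for these genes in turn. Among the 32 genes without cdk9, levels ran up to 35.4 normalized counts per kb (ell), and 12 of them had a mean of at least 50. The list's median log2 fold changes under CDK9 were 0.11 and 0.04, against 0.07 and 0.04 over all tested genes. Under MiR430 0 of 33 passed at the 256-cell or the 1024-cell stage, where 0.0323% and 1.01% of all tested genes rose. An unadjusted p under 0.05 was found for 0 and 2 of the 33, beside 3.93% and 11.1% of all tested genes.

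**Figure D4:**
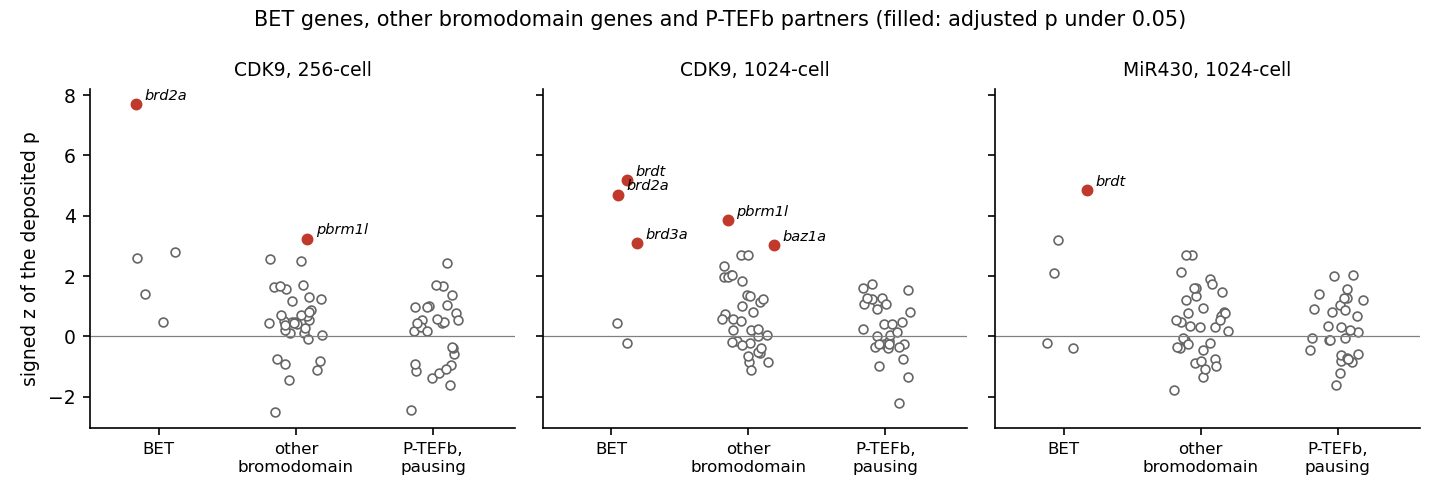
Signed z of the deposited p for the 5 BET genes, the other bromodomain genes and the P-TEFb and pause release genes without cdk9, each point a gene with an adjusted p and filled points called. Filled points are brd2a, brdt and brd3a among BET genes and pbrm1l and baz1a among other bromodomain genes, and none among P-TEFb partners.

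To place the 3 members that were called at least once, the genes with the most similar statistics were listed, by the Euclidean distance over the signed z of the 4 comparisons among 2390 genes with a mean of at least 50. The comparisons share control libraries and the list is only descriptive. Because genes were picked on these z values, a largest z in the same comparison as the member is no separate result. The mean includes the injected libraries, so a gene can enter this class through its rise. Nearest to brd2a were marcksl1b (distance 1.35), dre-mir-430b-6 (1.55), the Nodal ligand gene ndr1 (1.59), the Iroquois homeobox gene irx7 (1.85) and dre-mir-430b-4 (1.87), where the median gene lay at 9.30. All 5 had their largest z under CDK9 at the 256-cell stage, from 6.20 to 7.01. Nearest to brdt were the histone gene hist1h2a2 (0.91), zgc:112234 (1.18), the mitotic regulator gene fbxo5 (1.29), zgc:171759 (1.51) and zgc:173585 (1.60), with the median gene at 7.41. These had their largest z under CDK9 at the 1024-cell stage, from 4.97 to 6.30. Nearest to brd3a were crsp7 (0.31), ivns1abpb (0.35), ppp1r10 (0.52), the Myc family gene mycla (0.52) and cited4b (0.53), with the median gene at 4.40. The lists of the 3 members hold 15 different genes. With 5 genes picked from 2390 around each member, this lack of overlap is no separate result.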

How the data were processed

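Whole zebrafish embryos were assayed by enriched SLAM-seq in 3 conditions at 2 stages, with 3 replicates each. The build was GRCz11 and the tools named were HISAT, Trimmomatic, Picard, SAMtools, DESeq2 and featureCounts, per the submitters' processing notes, and the sources used here give no versions. The 4 deposited tables hold the authors' mean normalized count (a signal averaged over libraries, identical in the 4), log2 fold change with SE, p-value and adjusted p-value. That the log2 values are shrunken was judged from deposited values near 0 beside small p-values. The deposited count table served for symbols, exon positions and exon length (other values), and its 18 count columns were not used because they match no sample label. Planned fits on counts, and the comparison of untreated embryos between stages, were therefore not run.

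A gene was called at a deposited adjusted p under 0.05. The signed z was the normal quantile of the deposited p with the sign of the fold change. Stage differences were divided by the combined SE and Benjamini-Hochberg adjusted over the 9124 genes with an adjusted p at both stages. This step was run on simulated estimates without shrinkage, so its behaviour on the shrunken deposited values was not tested. Alternatives adjusted over all genes with a p or over genes with a mean of at least 50, recentred z on its median, or used the authors' rule. Members and lists were chosen with earlier results of these data known. Named were the 5 members, cdk9, neighbours, called list genes and the 5 genes nearest to each called member. Outside that rule, the T cyclin genes, the marker genes that rose and the list genes with the highest means were named after their values were seen. Sequences were not analysed here, and 1 gene of the bromodomain list is not reported here. Python 3.11.15, numpy 2.4.6, pandas 2.3.3, scipy 1.17.1 and matplotlib 3.10.9 were used.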

Additional observations from a re-analysis of the deposited data

How the results depend on the processing

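Of the 5 counts of called members, 2 changed by over 1.5 times under an alternative, both with p-values adjusted over genes with a mean of at least 50. A gene can enter that class through its rise, because the mean includes the injected libraries. Under CDK9 at the 256-cell stage the count with that adjustment was 2 in place of 1, with brd3a added. Under MiR430 at the 1024-cell stage the count was 2 in place of 1, with brd2a added. Under CDK9 at the 1024-cell stage it was 2 in place of 3 with all genes with a p counted, with recentred statistics and by the authors' rule, each time without brd3a. The stage difference had 0 members past the threshold in each of its 4 settings. Calls of brd2a and brdt under CDK9 and of brdt under MiR430 held in each of the 3 alternatives for adjustment and centring. Fits with DESeq2 or edgeR, other normalizations, a filter on counts, fits on 6 libraries and leaving out replicates were not run, as the count columns match no sample label. No paired analysis was possible because those columns carry no replicate number of the labels. Depth per library was not used, so what it limits cannot be given.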
